A study of Mus musculus with 20 samples.

Results

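The uterine transcripts that bisphenol A (BPA) moved within hours of an injection were measured on 6 arrays, 3 from uteri taken 2 h after BPA and 3 from vehicle uteri, chosen by their labels from 20 arrays in 7 groups. All mice were ovariectomized C57bl6/J females of at least 10 weeks that had rested 10 to 14 days after surgery. BPA 2 h mice received 750 µg BPA in sesame oil under the skin, and vehicle mice received 100 µl of sesame oil alone. The vehicle arrays are labelled 24 h, so BPA, the hours since the injection and the time of day cannot be told apart in this pair of groups. The groups set beside them were HPTE at 2 h and BPA at 24 h (750 µg, 3 arrays each) and, as side-by-side values only because its dose was 250 ng, the natural hormone 17β-estradiol (E2) at 2 h (3 arrays). The labels describe RNA extracted from each uterus, while the methods of the study describe pooled tissue, so n = 3 counts arrays. The p-values measure the spread between arrays of a group, pooled over all 7 groups, and that spread may be technical. Cells of every uterine layer contributed to each array. In whole tissue, fewer cells of a type and less RNA per cell cannot be told apart.

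BPA is an industrial phenol that binds the estrogen receptor weakly, and HPTE is the estrogenic metabolite of the pesticide methoxychlor. Both are built of a pair of para-hydroxyphenyl rings, joined by a carbon that carries methyl groups in BPA and a trichloromethyl group in HPTE. In the uterus an estrogen acts through estrogen receptor alpha, which binds estrogen response elements in DNA or reaches genes through other factors bound there, such as AP-1 and Sp1. The earliest products include immediate early transcription factors, feedback inhibitors of growth factor signalling, and secreted factors that make vessels leaky and fill the tissue with water, followed a day later by division of the epithelium.

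The array carried 41174 probes of 60 bases, and 31541 of them, under 21695 gene symbols, were well above background on every array of the vehicle group, the BPA 2 h group or both and were tested. Of these, 29777 passed in both groups, 894 in BPA 2 h only and 870 in vehicle only. A level is the log2 processed signal minus the 75th percentile of its array, a difference is BPA 2 h minus vehicle on that log2 scale, and "called" means a Benjamini-Hochberg adjusted p under 0.05, two-sided, in limma. Levels of different probes are not compared. The processed signal at the 75th percentile ranged from 1655.59 to 1797.39 on the 6 arrays, each array had 75.2 to 80.9% of its probes well above background, and Pearson's r between arrays of a group, over probes, was 0.984 to 0.993 in vehicle and 0.979 to 0.990 in BPA 2 h. Markers fixed for uterine epithelium (13 genes), stroma (12) and myometrium (10) were all well above background on all 6 arrays. BPA 2 h replicate 3 stood apart from the other two: over the probes called at 2-fold or more, the median size of its change from the vehicle mean was 1.185, against 1.66 and 1.71 in replicates 1 and 2.

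BPA 2 h and vehicle differed at 15955 probes, 50.6% of those tested, with 6245 higher (19.8%) and 9710 lower (30.8%) after BPA, and the arrays of the groups did not overlap at 17592 probes (55.8%). The median difference over all probes was -0.09. Quantile normalization moved that median to 0.00 and left 7771 higher and 8500 lower. At 2-fold or more, 1464 probes were higher (4.64%) and 3031 lower (9.61%). By fitted difference the increases reached further, with 52 probes at least 16-fold higher and 4 that far lower. Decreases outnumbered increases at 4-fold, with 876 against 366. These counts include probes not well above background in a group, whose fold is only bounded. Trim15, for example, was 49.2-fold higher by fitted difference and is bounded at 13.7-fold or more. Without BPA 2 h replicate 3 the calls numbered 16459. Slides 1 and 3 each held a vehicle and a BPA 2 h array, and within both slides the difference had the direction of the call for 1446 of the 1464 increases and 3010 of the 3031 decreases.

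**Figure D1:**
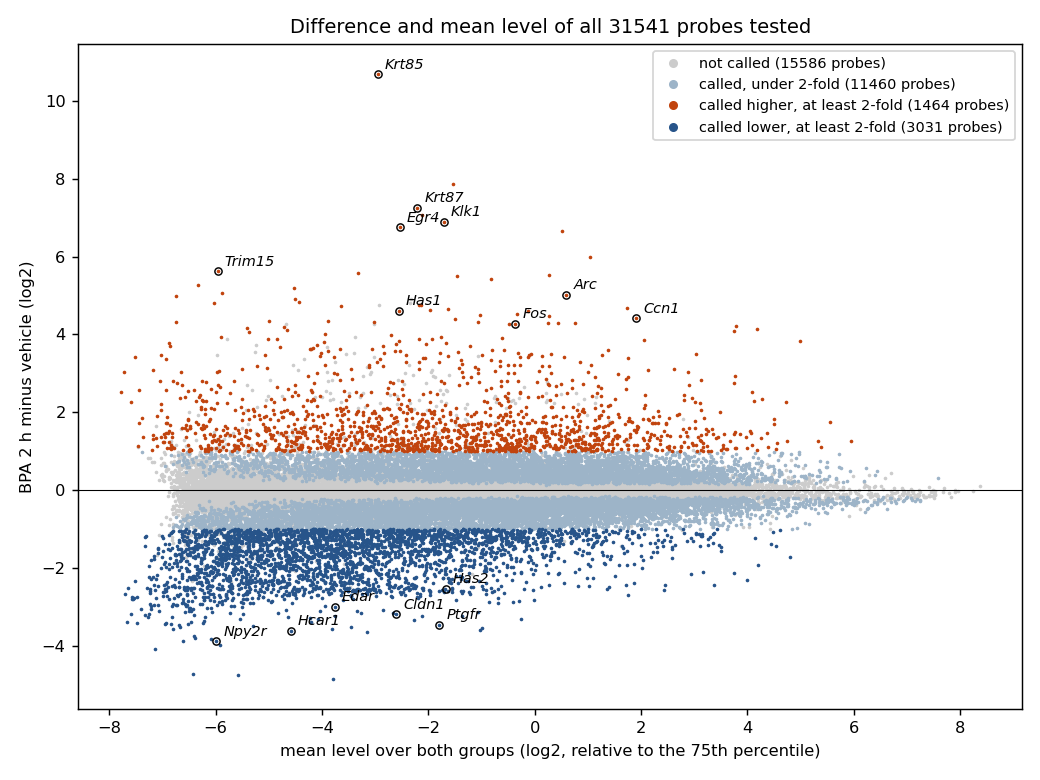
Difference between BPA 2 h and vehicle (log2, vertical axis) against the mean level of both groups (log2, horizontal axis) for the 31541 tested probes, with the 1464 probes called higher and the 3031 called lower by 2-fold or more in their own colours. Decreases outnumber increases, while the few largest changes are increases.

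Promoter sequence for the genes that moved together is shown first, because the immediate early factors named below bind short motifs in such stretches. RefSeq promoter sequence (GRCm38.p6) ran from 250 bases before to 50 bases after each start site. It was found for 517 of the 941 genes whose brightest probe was called higher at 2-fold or more, as 679 promoters. The motifs searched on both strands were the AP-1 site TGANTCA, the cAMP response element TGACGTCA, the GC box GGGCGG that Sp1 binds, the estrogen response element GGTCANNNTGACC, and the CArG box that serum response factor binds. The AP-1 site and the cAMP response element cannot match at the same letters. The cAMP response element was found in 4.12% of the promoters of genes called higher, 1.99% of the 1359 promoters of genes called lower and 2.65% of the 15387 promoters of all genes tested. For the AP-1 site these shares were 5.6, 7.21 and 5.88%, and for the CArG box 1.47, 1.25 and 1.33%. The GC box was in 59.9% of promoters of genes called higher, 39% of those called lower and 56.4% of all. The full estrogen response element was in 1, 0 and 5 promoters. These shares are descriptions of letters in a short window.

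The promoters of 6 genes that rose, 3 with a cAMP response element, 2 with an AP-1 site and that of Fos, were picked with their values known. Only the 250 bases before the start site are printed, 5′ to 3′ on the gene's strand, with every match to the named motif in capitals. Has1 (chr17:17855189-17855438, minus strand), Errfi1 (chr4:150854820-150855069, plus strand) and Dusp8 (chr7:142095285-142095534, minus strand, 2 matches) hold TGACGTCA. Csrnp1 (chr9:119983024-119983273, minus strand, 2 matches) and Il6 (chr5:30012864-30013113, plus strand) hold an AP-1 site, and Fos (chr12:85473640-85473889, plus strand) a GC box read from the other strand.
Has1: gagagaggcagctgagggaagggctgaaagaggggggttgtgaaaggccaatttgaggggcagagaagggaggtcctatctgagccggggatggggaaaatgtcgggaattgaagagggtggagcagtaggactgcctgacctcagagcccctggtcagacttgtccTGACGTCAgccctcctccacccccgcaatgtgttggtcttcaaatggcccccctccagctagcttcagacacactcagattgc
Errfi1: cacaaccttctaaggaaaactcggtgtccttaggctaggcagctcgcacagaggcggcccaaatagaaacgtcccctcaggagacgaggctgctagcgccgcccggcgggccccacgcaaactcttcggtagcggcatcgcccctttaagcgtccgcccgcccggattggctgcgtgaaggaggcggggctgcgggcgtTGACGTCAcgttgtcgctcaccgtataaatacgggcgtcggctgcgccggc
Dusp8: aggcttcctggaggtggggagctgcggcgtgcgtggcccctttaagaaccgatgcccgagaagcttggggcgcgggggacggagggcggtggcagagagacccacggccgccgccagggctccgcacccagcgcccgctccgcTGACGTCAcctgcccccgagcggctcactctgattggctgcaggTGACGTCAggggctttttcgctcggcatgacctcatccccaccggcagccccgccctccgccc
Csrnp1: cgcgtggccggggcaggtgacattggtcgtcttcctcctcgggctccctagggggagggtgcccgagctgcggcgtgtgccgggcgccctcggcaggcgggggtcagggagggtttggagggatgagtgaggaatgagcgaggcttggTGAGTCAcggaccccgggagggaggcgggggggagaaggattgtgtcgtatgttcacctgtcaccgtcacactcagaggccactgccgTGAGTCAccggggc
Il6: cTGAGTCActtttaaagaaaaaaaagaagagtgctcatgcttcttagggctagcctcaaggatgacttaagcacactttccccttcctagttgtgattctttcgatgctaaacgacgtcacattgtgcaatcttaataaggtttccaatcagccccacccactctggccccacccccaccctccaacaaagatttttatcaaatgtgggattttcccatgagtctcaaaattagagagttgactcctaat
Fos: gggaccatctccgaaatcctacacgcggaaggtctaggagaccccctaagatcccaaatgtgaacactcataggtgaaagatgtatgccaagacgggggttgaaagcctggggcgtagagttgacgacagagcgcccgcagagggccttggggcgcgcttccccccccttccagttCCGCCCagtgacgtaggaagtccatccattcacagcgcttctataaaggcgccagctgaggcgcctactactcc

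The AP-1 family, whose Fos and Jun proteins pair to bind the site above, rose almost as a whole. Of 9 genes tested, 8 were called higher and 0 lower, with a median difference of 2.27 against -0.09 over all probes. The shares of all probes were 19.8% higher and 30.8% lower. Fos, whose probe lies at chromosome 12, 83478431 to 83478490 (mm7), read -2.58, -2.54 and -2.40 on the vehicle arrays and 2.26, 2.07 and 0.97 on the BPA 2 h arrays. The groups were far apart, and BPA 2 h replicate 3 was the lowest of its group. The difference was 4.28 ± 0.28 (SE), a 19.4-fold increase (adjusted p = 4.17e-08), and it was 3.55 and 4.80 within slides 1 and 3. Fosl1, another Fos relative, rose by 3.62 ± 0.38 (SE) (adjusted p = 3.11e-06), and Atf3, a stress-induced partner of Jun proteins, by 3.48 ± 0.26 (SE) (adjusted p = 1.48e-07). Fosb rose by 3.01 ± 0.35 (SE) (adjusted p = 7.35e-06). The smallest called increase was that of Jun itself, 0.83, and Batf3 at 0.83 was not called.

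The other early transcription factors moved the same way, with 16 of 18 tested called higher, 0 lower and a median of 2.05, beside 19.8% higher and 30.8% lower over all probes. Egr4, a zinc finger factor of the early growth response family, read -5.33, -6.26 and -6.16 on the vehicle arrays and 0.92, 0.64 and 0.97 on the BPA 2 h arrays. All 3 BPA arrays were high and close to each other, and the groups did not overlap. The difference was 6.76 ± 0.24 (SE), 108-fold (adjusted p = 2.1e-10). Egr3 of the same family rose by 4.65 ± 0.24 (SE) (adjusted p = 5.75e-09). Nr4a1 encodes an orphan nuclear receptor induced within minutes of many stimuli. It read 1.79, 1.53 and 1.72 in vehicle and 5.85, 5.91 and 5.96 after BPA. The 3 BPA values lay almost on top of each other, far above vehicle, and the difference was 4.23 ± 0.10 (SE) (adjusted p = 2.21e-12). Csrnp1, a nuclear protein induced by axin, rose by 2.92 ± 0.14 (SE) (adjusted p = 3.37e-09). Arc, an immediate early gene best known from neurons, rose by 5.02 ± 0.26 (SE) (adjusted p = 5.75e-09).

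Inhibitors that feed back on growth factor signalling were called higher more often than lower, while over all probes 19.8% were called higher and 30.8% lower. Of 14 MAPK and EGFR feedback inhibitors, 8 were called higher and 3 lower, with a median of 0.66. Errfi1, which blocks the EGF receptor kinase, read 1.57, 1.84 and 1.74 in vehicle and 4.90, 4.95 and 3.77 after BPA, an increase of 2.82 ± 0.22 (SE) (adjusted p = 2.43e-07). Dusp8 and Dusp1, phosphatases that switch off MAP kinases, rose by 2.80 ± 0.21 (SE) (adjusted p = 1.46e-07) and 2.42 ± 0.12 (SE) (adjusted p = 5.12e-09). Spry4, an inhibitor of receptor tyrosine kinase signalling, rose by 2.55 ± 0.19 (SE) (adjusted p = 1.26e-07), whereas its relative Spry1 fell by 1.21 ± 0.24 (SE) (adjusted p = 0.00258). The call of Spry1 was lost when the 2 groups were fitted alone. Cytokine and NF-kB feedback genes gave 10 higher and 1 lower of 19, with a median of 0.53. Socs3 and Socs1, which shut off JAK kinases, rose by 2.75 ± 0.29 (SE) (adjusted p = 2.56e-06) and 2.43 ± 0.40 (SE) (adjusted p = 0.000145). Socs1 read 3.85, 4.20 and 1.84 on the BPA 2 h arrays, so that its replicate 3 was well below the other two, yet above the vehicle levels of 1.02, 0.73 and 0.83.

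**Figure D2:**
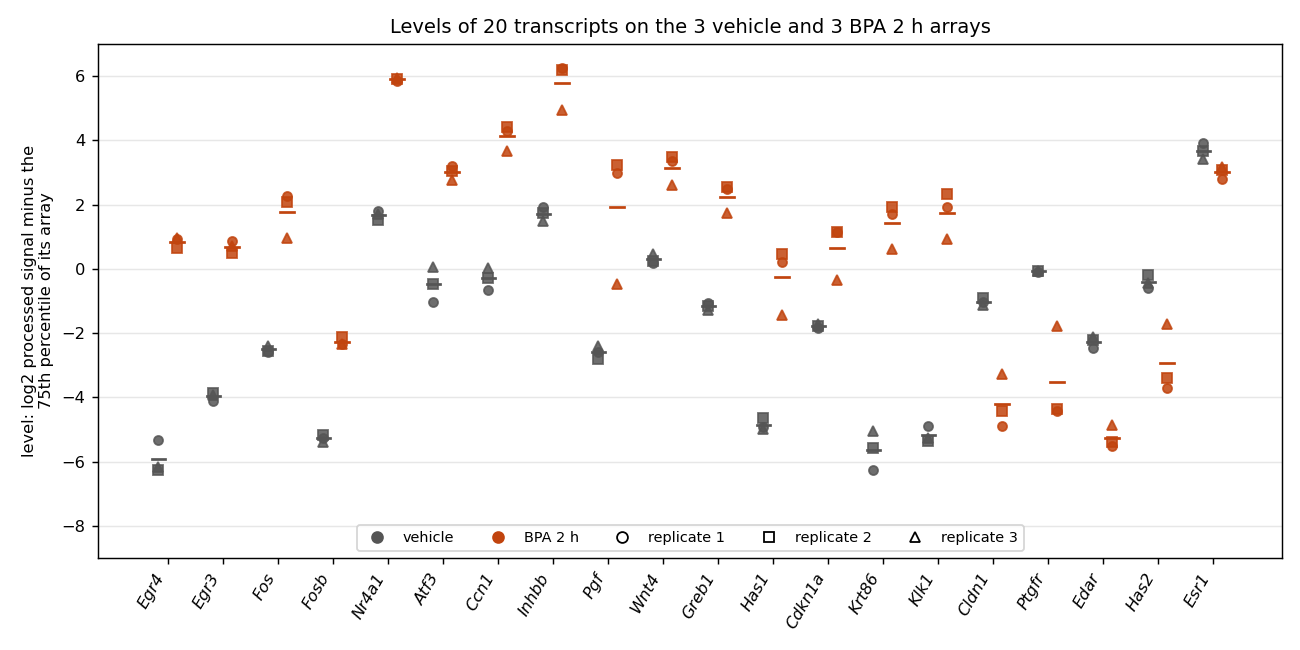
Level on each of the 3 vehicle and 3 BPA 2 h arrays (log2 processed signal minus the array's 75th percentile) for selected transcripts, with the group means as lines. Fos read between -2.58 and -2.40 in vehicle and between 0.97 and 2.26 after BPA, and BPA 2 h replicate 3 is the mildest of its group for several transcripts.

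Growth factor ligands and receptors were mixed in the EGF family and mostly lower in the IGF system. Over all probes, 19.8% were called higher and 30.8% lower. The EGF family gave 2 higher and 3 lower of 11, with a median of 0.17. Hbegf, an EGF receptor ligand cut from the cell surface, read 0.23, 0.55 and 0.51 in vehicle and 2.82, 3.04 and 3.19 after BPA, with no overlap, and rose by 2.59 ± 0.14 (SE) (adjusted p = 6.95e-09). Btc, a ligand of the same receptor, differed by -1.57 ± 0.16 (SE) (adjusted p = 2.73e-06), and Erbb3, the kinase-dead receptor of the family, by -1.13 ± 0.13 (SE) (adjusted p = 7.65e-06). In the IGF system 8 of 13 genes were called lower and 1 higher, with a median of -0.49. The gene that rose was Igf1, the growth factor that stroma supplies to the epithelium: it read 1.08, 1.27 and 1.07 in vehicle and 1.64, 1.82 and 2.42 after BPA. BPA 2 h replicate 3 was here the highest array, and the increase was 0.82 ± 0.18 (SE) (adjusted p = 0.00144). Irs1, which couples the receptors of insulin and IGF1 to their kinases, differed by -0.93 ± 0.20 (SE) (adjusted p = 0.00145), and Igf2r, which clears IGF2, by -0.79 ± 0.13 (SE) (adjusted p = 0.000201). Irs1 lost its call when only the 2 groups were fitted, and both lost it with spike-in scaling.

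Genes of vascular growth and permeability gave 8 higher and 7 lower of 21, with a median of -0.01. The shares of all probes were 19.8% higher and 30.8% lower. Vegfa, the vascular growth and permeability factor, read 1.56, 1.82 and 1.60 in vehicle and 4.16, 4.35 and 3.41 after BPA and rose by 2.31 ± 0.19 (SE), 4.96-fold (adjusted p = 3.57e-07). Pgf, placental growth factor, which binds the VEGF receptor Flt1, read -2.58, -2.80 and -2.40 in vehicle and 3.00, 3.24 and -0.46 after BPA. The groups did not overlap, but replicate 3 of BPA rose far less than replicates 1 and 2, and the error was accordingly large, 4.52 ± 0.64 (SE) (adjusted p = 4.18e-05). Adm, a vasodilator peptide, and Apln, the ligand of the apelin receptor, rose by 1.62 ± 0.29 (SE) (adjusted p = 0.000307) and 1.42 ± 0.20 (SE) (adjusted p = 4.2e-05). Aplnr, the receptor of Apln, moved the other way, by -1.29 ± 0.14 (SE) (adjusted p = 3.75e-06). Sele, the endothelial selectin that catches leukocytes, was well above background on 0 vehicle arrays and on all 3 BPA 2 h arrays, at least 9.41-fold higher (adjusted p = 3.01e-08). Endothelial markers fixed for comparison gave 0 higher and 4 lower of 10, with a median of -0.14.

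Wnt, BMP, activin and Notch genes, which pattern the uterus and relay signals between its layers, gave calls in both directions. Among all probes, 19.8% were higher and 30.8% lower. Of 25 Wnt genes, 7 were higher and 12 lower (median -0.46), and of 29 BMP, activin and Notch genes, 9 were higher and 12 lower (median -0.18). Inhbb, the beta B subunit of activin and inhibin, read 1.94, 1.73 and 1.49 in vehicle and 6.25, 6.20 and 4.94 after BPA, a rise of 4.08 ± 0.28 (SE), 16.9-fold (adjusted p = 7e-08). Wnt4, a ligand needed for the stromal response in the uterus, read 0.20, 0.24 and 0.46 in vehicle and 3.35, 3.49 and 2.62 after BPA, a rise of 2.86 ± 0.18 (SE) (adjusted p = 3.32e-08). For both genes all BPA arrays were above all vehicle arrays. Wnt7b rose by 1.93 ± 0.26 (SE) (adjusted p = 2.63e-05), while its relative Wnt7a, an epithelial ligand, read 0.35, 0.60 and 0.80 in vehicle and -2.07, -1.22 and 0.52 after BPA, a difference of -1.51 ± 0.43 (SE) (adjusted p = 0.00913). BPA 2 h replicate 3 lay within the vehicle range for Wnt7a, so the groups overlapped. Rnf43, which removes Wnt receptors from the surface, and Dkk2, a secreted Wnt antagonist, fell by 1.61 ± 0.29 (SE) and 1.59 ± 0.21 (SE) (adjusted p = 0.000286 and 1.98e-05). Hey1 and Heyl, repressors downstream of Notch, and Id1, a target of BMP signalling, rose by 1.69, 1.19 and 1.22 (adjusted p = 1.46e-06, 2.3e-06 and 1.19e-05), whereas the Notch ligand Jag1 differed by -1.52 ± 0.29 (SE) (adjusted p = 0.000511).

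Steroid receptors and their cofactors gave 8 higher and 9 lower of 21, with a median of -0.16, beside 19.8% higher and 30.8% lower over all probes. Greb1, an estrogen-induced gene, read -1.05, -1.16 and -1.27 in vehicle and 2.47, 2.54 and 1.75 after BPA and rose by 3.41 ± 0.17 (SE), 10.6-fold (adjusted p = 3.75e-09). Nrip1, a corepressor of the estrogen receptor, rose by 1.73 ± 0.26 (SE) (adjusted p = 6.08e-05), and Pgr, the progesterone receptor, by 1.60 ± 0.09 (SE) (adjusted p = 1.19e-08). The 3 BPA values of Pgr lay between -0.39 and -0.21, all above the vehicle values of -1.98, -1.78 and -1.91. Gper1, a membrane receptor studied for its response to estrogens, fell by 1.52 ± 0.19 (SE) (adjusted p = 1.54e-05), and Nr2f2, the stromal orphan receptor COUP-TFII, by 1.44 ± 0.22 (SE) (adjusted p = 9.06e-05). Stat5a, a transcription factor of cytokine signalling, rose by 1.81 ± 0.18 (SE) (adjusted p = 1.69e-06). The study followed 22 transcripts by RT-PCR. It chose most for E2 responses seen in earlier work, and Axin1, Per1, Gna12, Mvp and Tnxb as apparently raised by BPA and HPTE on its arrays. Of the 22, 17 were called higher and 0 lower, with a median of 1.26. Ccn1, a matrix protein that signals through integrins, led them with 4.42 ± 0.20 (SE) (adjusted p = 1.96e-09).

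**Figure D3:**
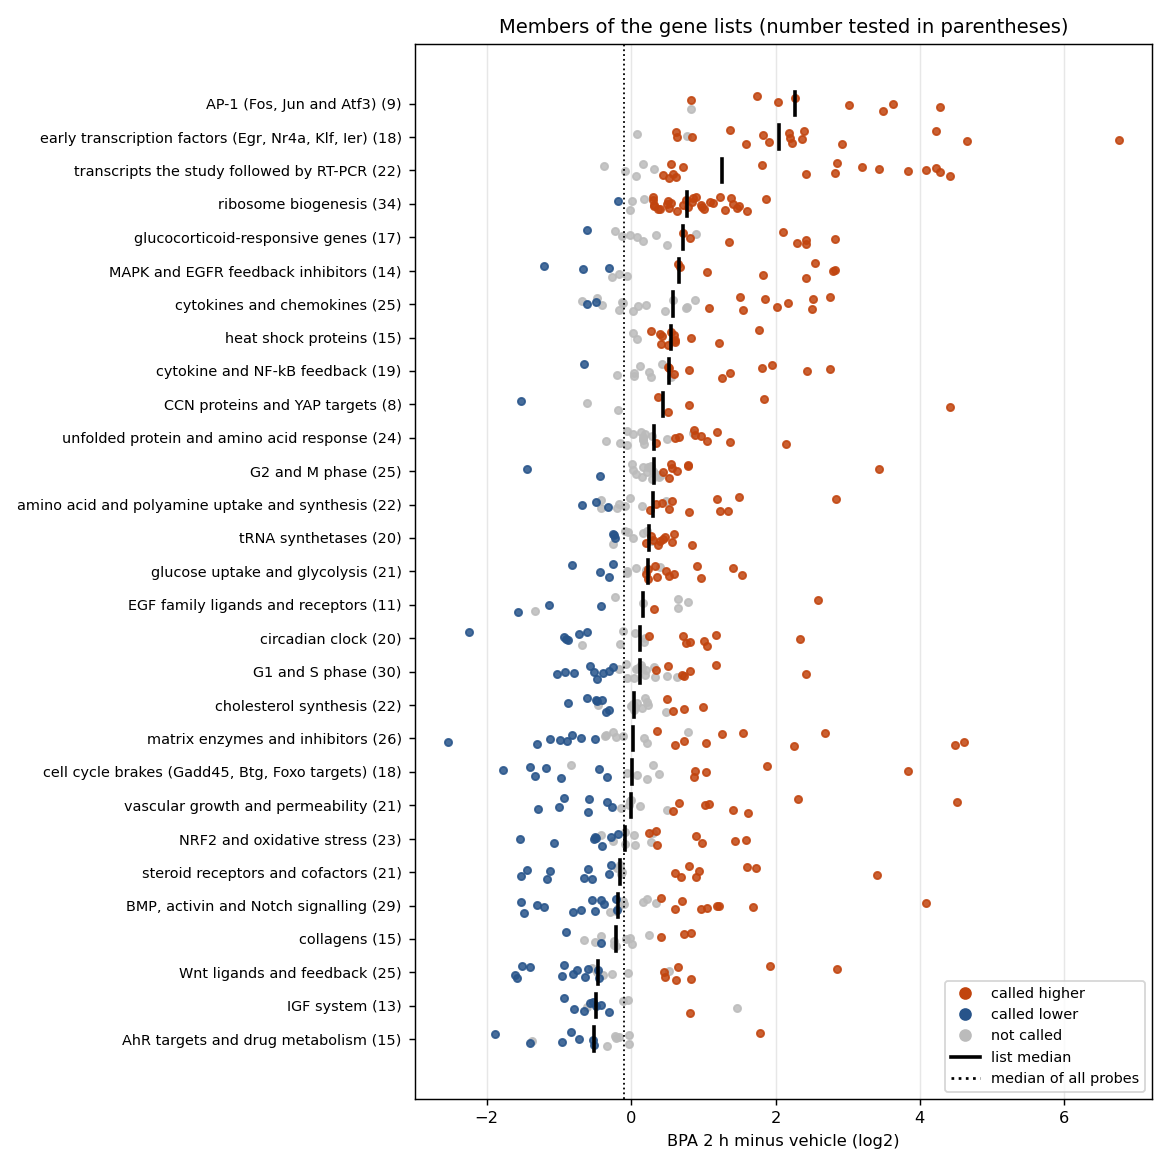
Median difference between BPA 2 h and vehicle (log2) of each gene list, marked by a line, with its members as points coloured by their call and the number tested beside its name. The AP-1 and early transcription factor lists have the highest medians, 2.27 and 2.05, and the median of all probes is -0.09.

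The 4 largest increases by fitted difference were Krt85, Krt87, Krt86 and Klk1, members of 2 families, hair-type keratins and glandular kallikreins, singled out after their values were seen. Of 8 type II keratins tested from the Krt71 to Krt88 group, some of which build the hard filaments of hair and nail, 5 were called higher. The share of all probes called higher was 19.8%. Krt85, whose probe lies at chromosome 15, 101502722 to 101502781 (mm7), was well above background on 0 vehicle arrays and read 3.25, 3.16 and 0.76 on the BPA 2 h arrays, at least 640-fold higher (adjusted p = 4.12e-08). Krt86 and Krt87, which were well above background on all 6 arrays, rose by 7.06 ± 0.37 (SE) (adjusted p = 6.9e-09) and 7.26 ± 0.28 (SE) (adjusted p = 3.42e-10). These keratins resemble each other closely, and a probe may also bind the transcript of a relative. Krt4, a keratin of internal squamous epithelia, rose by 4.90 ± 0.49 (SE) (adjusted p = 1.69e-06) and was well above background on 1 vehicle array.

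The Klk1 and Klk1b genes, serine proteases of a rodent cluster of near-identical copies, gave 10 higher and 0 lower of 11 tested, with a median of 4.34. The share of all probes called higher was 19.8%. Klk1 read -4.88, -5.34 and -5.26 in vehicle and 1.94, 2.33 and 0.94 after BPA, a rise of 6.90 ± 1.20 (SE) (adjusted p = 0.000245), and Klk1b5 read -2.22, -3.21 and -3.00 in vehicle and 4.11, 4.40 and 3.02 after BPA, a rise of 6.66 ± 1.04 (SE) (adjusted p = 9.58e-05). Both probes kept the groups far apart, with BPA 2 h replicate 3 lowest of its group. Probes of this cluster can bind each other's transcripts, so that the 10 calls are not 10 separate genes shown to rise. Klk1b9 differed by -0.92 and was not called. Other probes among the 15 largest increases were those of Trim15, a RING-finger protein, at least 13.7-fold higher (adjusted p = 2.22e-06), and Otop1, a proton channel, at least 6.44-fold higher (adjusted p = 7.36e-07). Slc13a3, a dicarboxylate carrier, was an increase of 4.73 ± 1.44 (SE) (adjusted p = 0.0125) from BPA values as far apart as 2.52, -1.47 and -4.86, and it was no longer called without BPA 2 h replicate 1.

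Matrix genes gave calls in both directions, where 19.8% of all probes were called higher and 30.8% lower. Of 26 matrix enzymes and inhibitors, 10 were called higher and 8 lower (median 0.03), and of 15 collagens 3 were higher and 2 lower (median -0.22). Has1, which makes hyaluronan, read -4.94, -4.65 and -4.98 in vehicle and 0.21, 0.47 and -1.44 after BPA and rose by 4.60 ± 0.36 (SE), 24.3-fold (adjusted p = 1.81e-07). Has2, another hyaluronan synthase, went the other way, from -0.59, -0.20 and -0.43 in vehicle to -3.72, -3.40 and -1.71 after BPA, and fell by 2.54 ± 0.36 (SE) (adjusted p = 4.01e-05). Neither gene's groups overlapped, and BPA 2 h replicate 3 moved least in both. Adamts4 and Adamts1, proteases that cut proteoglycans, rose by 4.49 ± 0.50 (SE) (adjusted p = 4.71e-06) and 2.26 ± 0.17 (SE) (adjusted p = 1.26e-07). Plaur, the urokinase receptor, rose by 2.69 ± 0.20 (SE) (adjusted p = 1.52e-07).

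Among genes of biosynthesis, those of ribosome biogenesis and heat shock proteins were mostly called higher, and the other lists were mixed. Of all probes, 19.8% were called higher and 30.8% lower. Of 34 ribosome biogenesis genes, 30 were called higher and 1 lower, with a median of 0.78, and 11 of the increases were at least 2-fold. Rrp12, which exports ribosomal subunits, rose by 1.86 ± 0.23 (SE) (adjusted p = 1.11e-05), and Bysl, which assembles the small subunit, by 1.60 ± 0.12 (SE) (adjusted p = 1.77e-07). The gene called lower was Npm1, a nucleolar chaperone, at -0.18 (adjusted p = 0.0317), which lost its call in 10 other settings, among them without vehicle replicate 1 and without BPA 2 h replicate 1 or 2. Of 15 heat shock genes 12 were higher (median 0.55), led by Hsph1, a large chaperone, with 1.77 ± 0.09 (SE) (adjusted p = 5.12e-09). Of 24 genes of the unfolded protein and amino acid responses 10 were higher (median 0.32), led by Atf4, the factor that drives amino acid supply, with 2.15 ± 0.15 (SE) (adjusted p = 1e-07). Amino acid and polyamine genes gave 11 higher and 3 lower of 22, led by Slc7a5, the importer of large neutral amino acids, with 2.83 ± 0.21 (SE) (adjusted p = 1.04e-07). Among 21 genes of glucose uptake and glycolysis 12 were higher and 4 lower (median 0.23), and Hk2, which traps glucose in the cell, rose by 1.54 ± 0.15 (SE) (adjusted p = 1.38e-06). Transfer RNA synthetases gave 10 higher and 3 lower of 20 (median 0.25), and cholesterol synthesis genes 4 higher and 7 lower of 22 (median 0.04).

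Genes of the division cycle were called about as often as probes in general, 50.6% of which were called, and few of them by 2-fold or more. Of 25 genes of G2 and M phase, 8 were called higher and 2 lower, with a median of 0.32, and of 30 genes of G1 and S phase, 7 were higher and 9 lower (median 0.12). Mad2l1, a spindle checkpoint protein, read -1.59, -1.45 and -1.68 in vehicle and 2.36, 2.23 and 0.98 after BPA and rose by 3.43 ± 0.25 (SE), 10.8-fold (adjusted p = 1e-07). Cdkn1a, the p21 inhibitor of cyclin kinases, rose by 2.43 ± 0.32 (SE) (adjusted p = 1.93e-05), and Gadd45g, a growth arrest gene, read 3.08, 3.14 and 3.00 in vehicle and 7.42, 7.57 and 5.72 after BPA, an increase of 3.83 ± 0.34 (SE) (adjusted p = 6.24e-07). In the lists of G1 and S and of G2 and M phase the other 2-fold calls were Rrm2, a subunit of ribonucleotide reductase, at 1.17 (adjusted p = 0.00452), Kif2c, a kinesin of the spindle, at -1.44 (adjusted p = 0.00109), and Cdk6, a kinase of G1 phase, at -1.03 (adjusted p = 2.26e-05). The call of Rrm2 was lost when the 2 groups were fitted alone. Among 18 brakes on the cycle 5 were higher and 7 lower, and Klf15, Sesn3 and Ccng2 differed by -1.77, -1.40 and -1.33 (adjusted p = 0.000117, 7e-08 and 6.41e-06). Against BPA at 24 h the G2 and M list stood lower at 2 h, with 24 of 25 genes called lower and a median of -1.23. The share of all probes called lower at 2 h than at 24 h was 28.5%.

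Cytokines and chemokines gave 9 higher and 2 lower of 25, with a median of 0.57, and all 9 increases were at least 2-fold. The shares of all probes were 19.8% higher, 4.64% higher by at least 2-fold, and 30.8% lower. Il6, an inflammatory cytokine whose promoter is printed above, was well above background on 0 vehicle arrays and on all 3 after BPA, at least 3.01-fold higher (adjusted p = 7.05e-06). Il1b, a cytokine of macrophages, read -4.78, -4.63 and -4.42 in vehicle and -1.15, -2.25 and -2.87 after BPA, a rise of 2.52 ± 0.68 (SE) (adjusted p = 0.00622), and Ccl3, a chemokine that attracts macrophages, read -3.07, -3.48 and -3.10 in vehicle and 1.18, -1.07 and -2.23 after BPA, a rise of 2.51 ± 0.66 (SE) (adjusted p = 0.00501). The groups did not overlap for either gene, but the BPA replicates were spread over more than 1 log2 unit. The call of Ccl3 was lost when the 2 groups were fitted alone. The list's median over vehicle was 0.88 and 0.90 in BPA replicates 1 and 2 and -0.07 in replicate 3.

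Blood cell markers are given beside that list. Of 12 lymphocyte markers, 3 were called higher and 0 lower, where 19.8% of all probes were called higher, and their summed linear level, relative to the 75th percentile, was 5.36 to 6.12 in the vehicle arrays and 18.95, 11.8 and 5.72 in BPA replicates 1, 2 and 3. Of 11 neutrophil and macrophage markers, 2 were higher and 0 lower, with sums of 95.6 to 112 in vehicle and 212, 152 and 119 in the BPA replicates. Adgre1, the macrophage marker F4/80, read 1.67, 1.65 and 1.79 in vehicle and 6.03, 3.15 and 1.74 after BPA, with replicate 3 inside the vehicle range. It had the widest difference of that list, and other members went otherwise: Ltf, a neutrophil granule protein, and Mrc1, a macrophage lectin, differed by -0.53 and 0.02, and S100a8, S100a9, Ngp and Camp were highest on vehicle replicate 3. Replicate 1 had the highest sum for both marker lists. Their part in the cytokine result was not tested.

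Genes tied to xenobiotic response, stress hormones and the clock were counted too, beside 19.8% of all probes called higher and 30.8% lower. Of 15 targets of the aryl hydrocarbon receptor and of drug metabolism, 1 was higher and 7 lower (median -0.52). The increase was Tiparp, a feedback inhibitor of the receptor, at 1.79 ± 0.38 (SE) (adjusted p = 0.00106), while Ahr, the receptor itself, differed by -1.40 ± 0.16 (SE) (adjusted p = 5.45e-06). Oxidative stress genes gave 7 higher and 8 lower of 23 (median -0.08). Of 17 glucocorticoid-responsive genes, 8 were higher and 1 lower (median 0.72), and the 8 include Errfi1, Dusp1 and Cdkn1a of the lists above. Of 20 clock genes 8 were higher and 6 lower (median 0.12): Nfil3, a repressor of the clock output, rose by 2.33 ± 0.26 (SE) (adjusted p = 4.87e-06), Per2, a core repressor, by 1.17 ± 0.14 (SE) (adjusted p = 6.62e-06), and Rorb differed by -2.25 ± 0.20 (SE) (adjusted p = 6.36e-07). Their dependence on the time of day, which the labels leave to differ between the groups, was not tested.

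The decreases were more numerous, and by fitted difference fewer of them were very large. Ptgfr, the receptor through which prostaglandin F2alpha contracts the uterus, read -0.10, -0.06 and -0.06 in vehicle and -4.42, -4.36 and -1.79 after BPA and fell by 3.45 ± 0.47 (SE), 10.9-fold (adjusted p = 2.96e-05). The vehicle arrays lay almost on top of each other, the groups did not overlap, and BPA 2 h replicate 3 fell least. Other prostaglandin receptors moved with it: in this family, singled out after its values were seen, 5 of 7 members tested were lower and 0 higher, namely Ptgfr, Ptger2 (-1.62), Ptger4 (-1.34), Ptger3 (-1.24) and Ptgir (-1.23). The shares of all probes were 30.8% lower and 19.8% higher. Ndp, the ligand norrin that signals to vessels, read 1.33, 1.41 and 1.47 in vehicle and -2.46, -2.43 and -0.83 after BPA and fell by 3.31 ± 0.32 (SE) (adjusted p = 1.39e-06). Cldn1, a tight junction protein, read -1.03, -0.91 and -1.11 in vehicle and -4.90, -4.41 and -3.28 after BPA and fell by 3.18 ± 0.31 (SE) (adjusted p = 1.53e-06). Edar, the ectodysplasin receptor of skin appendages, read -2.48, -2.20 and -2.11 in vehicle and -5.52, -5.40 and -4.85 after BPA. Its 3 BPA values were close together and far below vehicle, a fall of 2.99 ± 0.20 (SE) (adjusted p = 6.47e-08).

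Others of the 15 largest decreases were scattered over receptors, carriers and transcription factors. Npy2r, a receptor of neuropeptide Y, read -3.96, -4.15 and -4.05 in vehicle and -9.72, -9.32 and -4.75 after BPA, a fall of 3.88 ± 0.86 (SE) (adjusted p = 0.00167). It was well above background on 1 of the 3 BPA 2 h arrays, and replicate 3 lay just under vehicle. Hcar1, the lactate receptor, read -2.79, -2.89 and -2.65 in vehicle and -6.93, -7.55 and -4.70 after BPA, a fall of 3.61 ± 0.49 (SE) (adjusted p = 2.96e-05). Slco4c1, an organic anion carrier, read -4.05, -3.58 and -4.06 in vehicle and -9.13, -8.28 and -4.18 after BPA, with replicate 3 just below vehicle (difference -3.30 ± 0.83 (SE), adjusted p = 0.00373). Npy2r and Slco4c1 both lost the call when only the 2 groups compared were fitted. Msc, a basic helix-loop-helix repressor, fell by 3.16 ± 0.51 (SE) (adjusted p = 0.00013), and Mab21l3 by 3.14 ± 0.46 (SE) (adjusted p = 5.33e-05). Lrrtm1, a synaptic adhesion protein, was well above background on all 3 vehicle arrays and on 0 after BPA, at least 5.55-fold lower (adjusted p = 1.86e-05).

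Hox genes of the A and D clusters, which set the identity of the reproductive tract, fell in most members, and both clusters were singled out after their values were seen. Of 11 Hoxa genes tested, 9 were called lower and 0 higher, with a median of -1.24, and of 6 Hoxd genes, 5 were lower and 0 higher, with a median of -0.69. Hoxa10, required in the stroma for implantation, read 3.24, 3.12 and 3.05 in vehicle and 1.07, 1.28 and 2.74 after BPA, a fall of 1.44 ± 0.30 (SE) (adjusted p = 0.00094). Hoxa11, its neighbour in the cluster, read 4.11, 3.77 and 3.99 in vehicle and 2.00, 2.18 and 3.49 after BPA, a fall of 1.40 ± 0.31 (SE) (adjusted p = 0.00163). Both had BPA 2 h replicate 3 nearest to vehicle, with no overlap. Uterine stroma markers, which hold both genes, gave 7 lower and 1 higher of 12, with a median of -0.605. Myometrium gave 1 higher and 1 lower of 10 (median 0.04) and epithelium 2 higher and 4 lower of 13 (median -0.25). Over all probes the shares were 30.8% lower and 19.8% higher. The summed level of the stroma markers was 385 to 420 in vehicle and 300.3, 327 and 391 in BPA replicates 1, 2 and 3.

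Several of the largest decreases moved with transcripts of maturing sperm cells. Of 23 such markers tested, 22 were called lower, where 30.8% of all probes were, with a median of -2.38. Their summed level was 143, 48.0 and 42.6 on vehicle arrays 1, 2 and 3 and 18.45, 13.3 and 9.58 on the BPA 2 h arrays. Within slide 3, which leaves out vehicle replicate 1, the list's median difference was -1.38, and within slide 1 it was -3.94. Prm1, the protamine that packs sperm DNA, read 5.74, 4.08 and 3.99 in vehicle and 2.69, 2.20 and 1.61 after BPA, and it was well above background on all 6 arrays from ovariectomized females. Sycp1, which joins chromosomes in meiosis, read -3.66, -5.10 and -5.97 in vehicle and was not well above background after BPA, at least 5.22-fold lower (adjusted p = 2.26e-05). Hsd3b2, a steroid dehydrogenase, read -3.30, -4.84 and -5.47 in vehicle and was at least 5.97-fold lower (adjusted p = 1.22e-05). Like the sperm markers, Sycp1, Hsd3b2, Spdye4b, Spdyb and Muc3 were highest on vehicle replicate 1, and all of them were also called lower than vehicle at 24 h after BPA. Muc3 was no longer called without vehicle replicate 1 or without BPA 2 h replicate 3. The part of these cells in such decreases was not tested. Ptgfr, Ndp, Cldn1 and Edar differed from vehicle by 0.02, -0.10, -0.22 and -0.20 at 24 h.

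**Figure D4:**
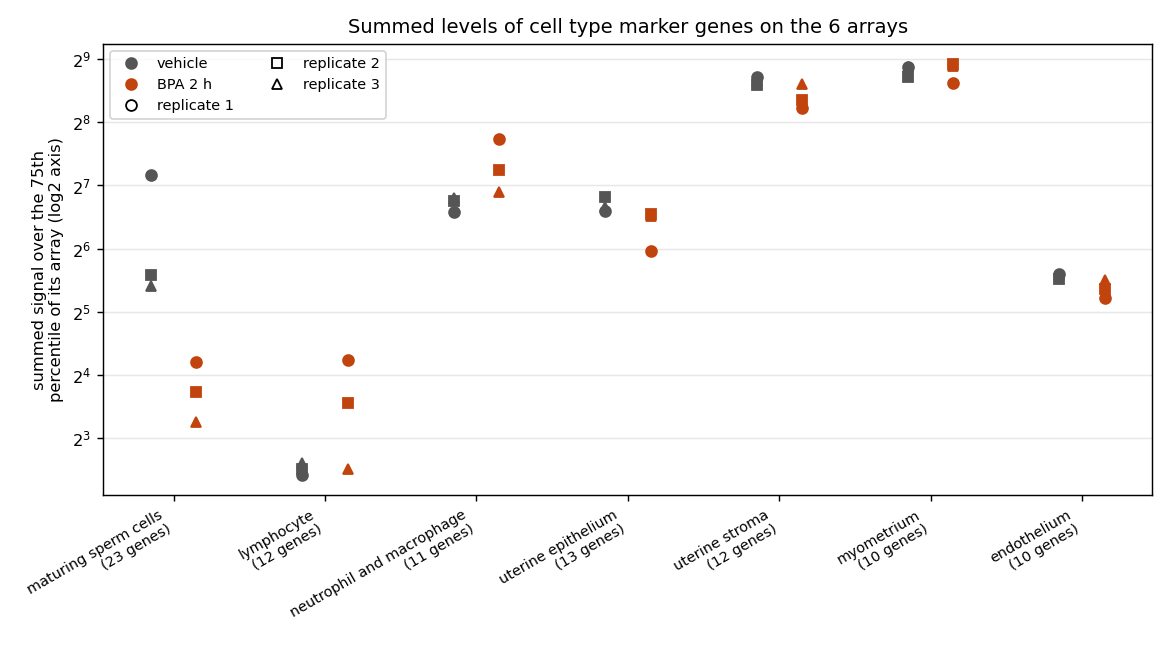
Summed linear level of each fixed marker list on the 3 vehicle and 3 BPA 2 h arrays, relative to the 75th percentile, on a log axis. Sperm cell markers fall from 143, 48.0 and 42.6 in vehicle to 18.45, 13.3 and 9.58 after BPA, and lymphocyte markers are highest in BPA replicate 1.

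The other marker lists are given by their counts, where 19.8% of all probes were called higher and 30.8% lower. Exocrine pancreas (12 tested), liver (7) and Y-linked genes (2) gave 0 calls in limma, and 0, 1 and 0 of them had an unadjusted p under 0.05. There were 1 higher of 7 mast cell markers, 4 lower of 8 of skeletal muscle (median -0.73), 1 lower of 11 of adipose tissue (median -0.74) and 1 lower of 5 of erythrocytes. Markers of ovary and oviduct gave 1 higher and 3 lower of 6 (median -0.83).

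The change at 2 h was compared with that at 24 h in BPA-treated uteri. Since the vehicle arrays served both times, the test was BPA 2 h against BPA 24 h directly, which with no 2 h vehicle cannot be told apart from the time of day. It called 6524 probes higher at 2 h (20.7%) and 9004 lower (28.5%), so that 42% of calls were higher. With no scaling between arrays that share was 62.5%, and with spike-in scaling 65.6%, while the median difference over all probes moved from -0.05 to 0.12 and 0.16. Of the 1464 probes higher than vehicle by 2-fold or more, 1208 were also called higher than BPA 24 h, 256 were not called and 0 were lower. Of the 3031 lower than vehicle, 2012 were also lower than BPA 24 h, 965 were not called and 54 were higher. Fos was 4.56 higher at 2 h than at 24 h (adjusted p = 1.61e-08), Inhbb 4.73 (adjusted p = 1.24e-08) and Vegfa 3.12 (adjusted p = 1.63e-08). Krt86 was 7.06 higher at 2 h (adjusted p = 4.85e-09), and at 24 h it differed from vehicle by 0.00. Klk1, still 1.34 above vehicle at 24 h, was 5.56 higher at 2 h (adjusted p = 0.00127). Il1b differed by 0.32 between the times and was not called (adjusted p = 0.73), with a level 2.20 above vehicle in the fit at 24 h. Of the 18 early transcription factors 16 were called higher than at 24 h, and the list's median over vehicle at 24 h was -0.22.

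BPA and HPTE were compared at 2 h at the same mass of 750 µg, which is fewer molecules of the heavier HPTE. Of the 31541 probes, 151 were called (0.479%), 72 higher and 79 lower after BPA, and 5231 had an unadjusted p under 0.05. The split turned with the setting: quantile normalization gave 26 higher and 65 lower, slide as a block 61 higher and 30 lower, and array weights 379 higher and 274 lower. The calls included 17 of the 1464 probes higher than vehicle and 27 of the 3031 lower. Among the 4495 probes called against vehicle at 2-fold or more, the 95% interval of BPA minus HPTE lay within 2-fold both ways for 2674 (59.5%), and its median width over all probes was 0.61. For Fos the difference was -0.39 (95% interval -0.99 to 0.20), for Nr4a1 -0.07 (-0.29 to 0.15), for Vegfa -0.46 (-0.87 to -0.04), for Krt86 -0.21 (-1.01 to 0.58) and for Klk1 -1.11 (-3.67 to 1.45). The interval of Nr4a1 leaves room for little difference, while that of Klk1 is wide. Its width rests on a spread pooled over all 7 groups: the SD of Klk1 was 0.25 in vehicle and 0.71 in BPA 2 h.

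The calls that separated the compounds were few, and their number depended on single arrays, on the scaling and on the groups fitted. The 10 largest in each direction were taken after their values were seen. Saa3, an acute phase protein, was 4.76 higher after BPA than after HPTE (95% interval 2.82 to 6.70, adjusted p = 0.0379), and Irg1, a macrophage enzyme that makes itaconate, 4.16 higher (2.55 to 5.77, adjusted p = 0.0301). Cxcl1, a neutrophil chemokine, read -3.14, -2.74 and -3.16 after BPA and was 2.03 higher than after HPTE (1.27 to 2.79, adjusted p = 0.0285). These calls held in 9, 10 and 11 of 17 other settings. The summed levels of the lymphocyte and of the neutrophil and macrophage markers were highest in BPA replicates 1 and 2. Single markers did not all follow: among the BPA arrays, Mrc1 was highest in replicate 3. The sperm cell markers also stood higher after BPA than after HPTE, with a median of 1.40, though 0 of 23 were called. Ssty2 and Fam71f1, called lower than vehicle under both compounds, were 2.74 and 2.47 higher after BPA than after HPTE. The part of blood cells or sperm cells in the calls was not tested. In the other direction, Edn2, an endothelin peptide, read -2.66, -2.53 and -2.51 in vehicle and -4.38, -3.75 and -3.92 after BPA, and BPA minus HPTE was -1.46 (-1.80 to -1.11, adjusted p = 0.00246). Ttl, which adds tyrosine to tubulin, differed by -1.24 (-1.59 to -0.89, adjusted p = 0.0048), and Anks6, a protein of the primary cilium, by -1.14 (-1.42 to -0.85, adjusted p = 0.00246). These 3 differences held in 15 of 17 settings, all but spike-in scaling and the fit of only the 2 groups, which called 0 probes. Cited2, a coactivator-binding protein on the steroid cofactor list, was the member of that list with a call. It fell by 1.17 ± 0.25 (SE) under BPA against vehicle, and BPA minus HPTE was 1.68 (1.14 to 2.22, adjusted p = 0.0124). Leaving out BPA 2 h replicate 3 raised the 151 calls to 1253, and leaving out BPA 2 h replicate 1 lowered them to 40, while leaving out HPTE 2 h replicate 1 or 2 left 14.

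The values against the shared vehicle arrays stood side by side as follows, with the E2 dose not matched. Fos was 4.28 under BPA, 4.67 under HPTE and 5.38 under E2 at 2 h. Vegfa was 2.31, 2.77 and 2.34 in the same order, Inhbb 4.08, 4.39 and 4.24, and Krt87 7.26, 7.44 and 8.08. For Cldn1 the values were -3.18, -2.93 and -0.82, for Ptgfr -3.45, -3.99 and -1.91, and for Otop1 the HPTE and E2 values were 6.22 and 1.09. The median of the ribosome biogenesis list was 0.78 under BPA, 0.76 under HPTE and 0.44 under E2. For the cytokine list it was 0.57, -0.13 and 0.05. The E2 arrays also differed in exocrine pancreas markers (12 tested), with a median of 6.53 under E2, -0.14 under BPA and -0.23 under HPTE. What this does to the other E2 values was not tested.

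**Figure D5:**
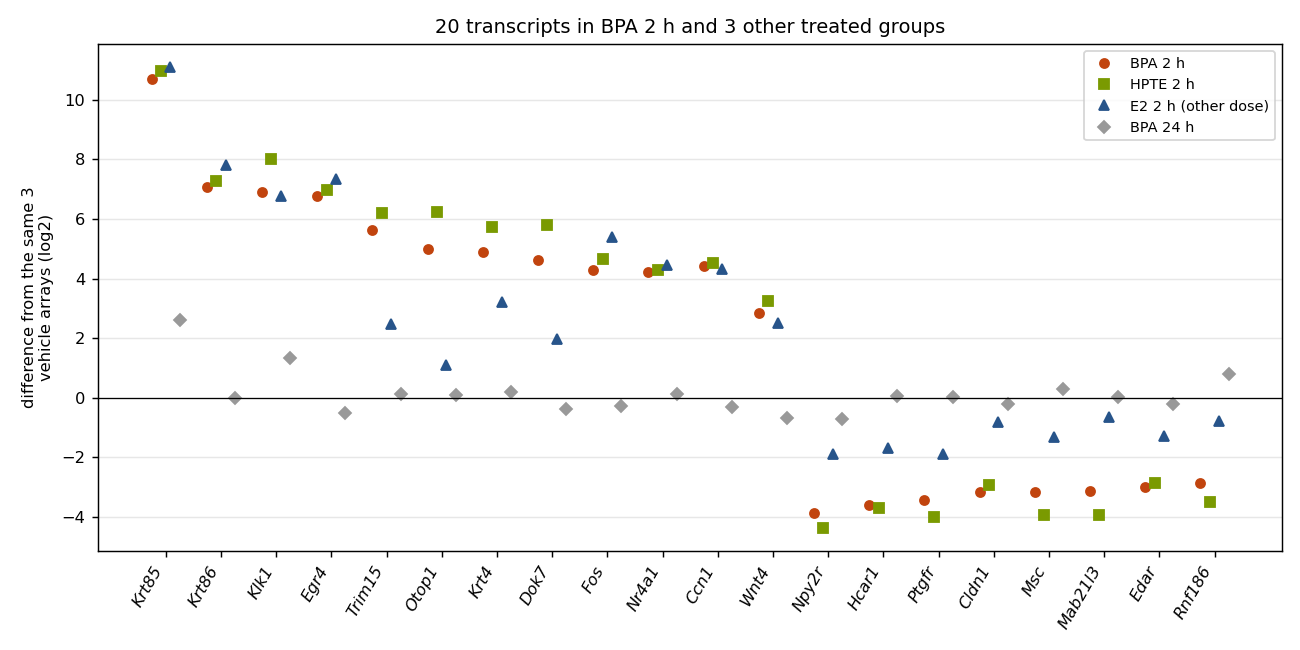
Difference from the shared vehicle arrays (log2) in each treated group for selected transcripts, with BPA 2 h beside HPTE 2 h, E2 2 h (250 ng, a dose that is not matched) and BPA 24 h. Fos stands at 4.28 after BPA at 2 h and at -0.28 at 24 h, and the points of Krt85, Trim15 and Otop1 rest on vehicle levels that were not well above background.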

How the data were processed

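Cy3-labelled cRNA from 500 ng of total RNA per array was hybridised to an Agilent one-colour mouse array. The deposited intensities came from Agilent Feature Extraction 9.5 (submitters' processing notes), which per the file headers subtracted background and removed spatial trends within each array, with no scaling between arrays. The deposited value table equalled this processed signal on all 20 arrays within a relative tolerance of 1e-06. Spots were averaged per probe after control spots and outlier flags were left out, and log2 values were centred on each array's 75th percentile. Probes with more than 2 missing arrays, or with no value left in a group, were dropped (2 probes). Probes were named through RefSeq accessions (23082 of 41174) or kept the name of the file, and positions are on mm7 as the files give them.

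All 20 arrays and 7 group means were fitted with limma 3.58.1 in R 4.3.3 (lmFit, eBayes, 13 residual and 1.99 prior degrees of freedom), two-sided, with Benjamini-Hochberg adjustment over the 31541 probes. The tests were tried on simulated data with 200 changed probes. An "at least" fold sets the bright group's mean against, per array, the higher of the dim probe's signal and the lowest signal well above background. Summed marker levels are linear.

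The genes and lists were chosen with earlier results of these data known. Named were the 15 largest increases and decreases whose groups did not overlap, the same among probes also called against BPA 24 h, up to 4 called members of each of 29 gene lists with the furthest the other way, and the 22 transcripts of the RT-PCR list, with 1 probe per gene, the brightest. Genes named outside this rule, the families, Prm1, Adgre1 and the genes of the HPTE comparison among them, were picked after their values were seen, and the alternatives that leave out HPTE or BPA 24 h arrays were added then too. The transcripts of 15 marker lists are counted only. Alternatives covered scaling, background, filter, samples fitted, slide, replicate number, array weights and leaving out each array.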

Additional observations from a re-analysis of the deposited data

Results flagged for a closer look

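The difference between BPA 2 h and BPA 24 h was called at 15528 probes. With no 2 h vehicle, the time since BPA, the time since the injection and the time of day cannot be told apart in it. Genes of G2 and M phase ran against the early response, with a median 1.68 above vehicle at 24 h and 0.32 at 2 h. The change against vehicle at 2 h differed between BPA and HPTE at 151 probes. Both tests ran over all probes with 3 arrays a group.

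At 54 probes the level was at least 2-fold lower than vehicle at 2 h and then higher than at 24 h, so that the decrease was deeper a day after BPA than at 2 h. Sperm cell markers have this order as a list, with a median of -2.38 at 2 h and -3.39 at 24 h, though 1 of 23 was called higher at 2 h than at 24 h.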

How the results depend on the processing

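The number of probes called against vehicle, 15955, was 5586 with spike-in scaling (2282 higher, 3304 lower) and 4495 with a 2-fold limit added (1464 higher, 3031 lower). Leaving out single arrays gave 13699 to 16459 (5288 to 6512 higher, 8354 to 9947 lower), and no other alternative moved it by more than 1.5 times. The comparison with BPA 24 h called 15528 probes and 5332 with spike-in scaling. The comparison with HPTE called 151 probes, 91 with quantile normalization (26 higher, 65 lower), 16 with no scaling, 91 with slide as a block (61 higher, 30 lower) and 653 with array weights (379 higher, 274 lower). It called 0 with spike-in scaling and 0 with only the 2 groups in the limma fit, where 1795 and 3144 probes had an unadjusted p under 0.05. Leaving out single arrays gave 14 to 1253: 14 without HPTE 2 h replicate 1 and 14 without replicate 2, 40, 652 and 1253 when BPA 2 h replicate 1, 2 or 3 was left out, and 69 and 87 when vehicle replicate 2 or 3 was. The cause was not tested.

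Replicate numbers did not pair the arrays: the deviations of same-numbered vehicle and BPA 2 h arrays from their group means correlated by 0.05, -0.06 and -0.14, and not every array correlated best with its own number. With the replicate number as a block the counts were 15722 against vehicle, 111 against HPTE and 15294 against BPA 24 h.

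Of the 165 named genes 160 were called against vehicle. Over all alternatives, 2499 of 2617 values stayed on their side of the threshold, 113 lost the call, 5 gained it and 0 changed direction, and 121 genes were called in every alternative. Spike-in scaling lost 29 named calls and the fit of only the 2 groups 19 (among them Npm1, Cdk1, Tsc22d3, Aurkb, Ube2c, Igf2, Sars1, Col18a1, Erbb2, Irs1, Per1, Slc13a3, Bmp2, Ccl3, Npy2r, Rrm2, Slco4c1 and Spry1). The calls lost most often were those of Slc1a4 (13 alternatives), Npm1 (10), Cdk1 (9) and Tsc22d3 (8), each a difference of under 1 on the log2 scale. Of 800 list medians under the alternatives, 81 moved by more than 1 SD. The 3 arrays a group limit the precision, and dim probes bound a fold from 1 side only.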
